A study of Mus musculus with 2 samples.

Results

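Levels of 8 genes linked to glucocorticoid signalling were measured across microglia states and other cell classes of the mouse retina, in oxygen-induced retinopathy (OIR) and in control animals. The genes are Nr3c1, Fkbp5, Tsc22d3, Dusp1, Sgk1, Klf9, Per1 and Hpgd. They were chosen by symbol, with earlier results of these data known, and are 8 of the 31053 genes counted. No sample received a glucocorticoid according to the labels, so the name of the set rests on what is known of the genes and cannot be checked in these data.

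The OIR group was wild-type C57BL/6 mice at postnatal day 17 that had breathed 75% oxygen from day 7 to day 12 and room air after that. The control group was wild-type C57BL/6 mice at postnatal day 17, labelled control. In the OIR model, high oxygen stops and prunes the growing retinal vessels, and the retina becomes short of oxygen after the return to room air. Retinas of 6 mice were pooled in each group, dissociated with papain and selected with beads against CD11b, a protein on the surface of microglia and their myeloid kin, before droplet-based single-cell RNA sequencing. The sources used here do not give the time of day of collection, which bears on hormone and clock genes.

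The OIR library held 7283 cell barcodes with 49773742 UMIs (unique molecular identifiers, which count RNA molecules), and the control library held 10826 barcodes with 50081145 UMIs. After filtering, 6132 OIR cells with a median of 2828.5 UMIs and 8585 control cells with a median of 1648 UMIs remained. The labels call the cells retinal microglia, but 628 OIR cells (10.2%) and 832 control cells (9.69%) were microglia-like by their markers, while rod-like cells made up 59.0% in OIR and 78.5% in control. Among the kept cells, 30 barcodes occurred in both libraries. The pools also differed in Y-linked RNA, with Ddx3y at 7.19 CPM (counts scaled to 1000000 UMIs of a class) in OIR and 25.6 CPM in control microglia-like cells. Its part in the results was not tested. With 1 library for OIR and 1 for control, differences could not be checked against replicates and were not tested. Intervals below are at the 95% level and reflect counting error alone.

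Glucocorticoids are adrenal steroid hormones that enter cells and bind the glucocorticoid receptor, the product of Nr3c1. The receptor waits in the cytoplasm with HSP90 chaperones, moves to the nucleus when it binds hormone, and switches genes on or off there. Fkbp5, itself a target, encodes a chaperone partner that lowers the receptor's affinity for hormone and so closes a feedback loop. Tsc22d3 encodes GILZ, which restrains the inflammatory factors NF-kB and AP-1, and Dusp1 encodes a phosphatase that turns off the p38 and JNK kinases. Sgk1 encodes a kinase that acts on ion channels and transporters, Klf9 a zinc-finger repressor and activator of transcription, and Per1 a repressor of the circadian clock. Hpgd encodes the enzyme that inactivates prostaglandins such as PGE2. In microglia and macrophages, glucocorticoids are known for damping inflammatory output.

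All 8 are protein-coding genes. On mm10, Fkbp5 (28399094 to 28517527) and Dusp1 (26505590 to 26562128) lie on the minus strand of chromosome 17, and Tsc22d3 (140539528 to 140600659) lies on the minus strand of the X chromosome. Sgk1 (21882184 to 21999903, chromosome 10), Klf9 (23141226 to 23168134, chromosome 19), Per1 (69095217 to 69109960, chromosome 11) and Hpgd (56294585 to 56321043, chromosome 8) lie on plus strands. Promoter windows of 300 bases, from 250 before to 50 after a start site, were taken from RefSeq on GRCm38.p6 for 7 of the 8 genes, 15 windows in all. They were searched on both strands for the full receptor element (AGAACA and TGTTCT with any 3 bases between), the cyclic-AMP element TGACGTCA and the E-box CACGTG, which clock factors can bind. The 4 windows below are shown because they hold such a motif, which is in capitals. They are chr10:21993640-21993939 (plus strand) for Sgk1, chr17:26508423-26508722 (minus strand) for Dusp1, chr17:28486100-28486399 (minus strand) for Fkbp5 and chr11:69098699-69098998 (plus strand) for Per1.
Sgk1: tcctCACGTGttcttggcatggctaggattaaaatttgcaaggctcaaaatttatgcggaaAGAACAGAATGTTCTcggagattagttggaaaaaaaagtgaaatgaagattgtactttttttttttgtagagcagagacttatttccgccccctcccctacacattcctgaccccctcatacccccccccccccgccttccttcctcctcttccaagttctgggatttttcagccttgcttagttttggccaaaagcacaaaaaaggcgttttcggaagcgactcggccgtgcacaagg
Dusp1: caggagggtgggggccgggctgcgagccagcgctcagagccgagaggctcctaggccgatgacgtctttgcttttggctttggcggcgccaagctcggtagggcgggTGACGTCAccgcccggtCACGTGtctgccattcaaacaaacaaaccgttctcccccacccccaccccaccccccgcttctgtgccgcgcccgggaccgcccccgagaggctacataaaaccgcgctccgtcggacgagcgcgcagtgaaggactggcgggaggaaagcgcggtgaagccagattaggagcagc
Fkbp5: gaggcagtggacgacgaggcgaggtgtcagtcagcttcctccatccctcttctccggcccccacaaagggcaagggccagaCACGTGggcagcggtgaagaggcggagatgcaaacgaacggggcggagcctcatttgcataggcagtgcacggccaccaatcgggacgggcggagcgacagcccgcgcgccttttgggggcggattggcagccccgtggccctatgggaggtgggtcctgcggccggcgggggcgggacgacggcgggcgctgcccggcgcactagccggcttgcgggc
Per1: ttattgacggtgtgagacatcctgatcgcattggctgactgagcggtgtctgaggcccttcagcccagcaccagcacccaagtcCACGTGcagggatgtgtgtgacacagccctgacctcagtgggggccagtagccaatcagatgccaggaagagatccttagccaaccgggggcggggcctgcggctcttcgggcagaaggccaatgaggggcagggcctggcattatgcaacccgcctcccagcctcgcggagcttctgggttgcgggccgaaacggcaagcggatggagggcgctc

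The Sgk1 window held the full receptor element from base -189 and an E-box from base -246, counted from the start site. The full element occurred in 3 of 32851 mouse promoter windows (0.00913%), and this start site was 1 of 6 listed for Sgk1. The Dusp1 window held the cyclic-AMP element from base -143, a motif found in 1.79% of windows, and an E-box from base -126. The Fkbp5 and Per1 windows held an E-box from bases -169 and -166, and 7.15% of all windows held that motif. None of the motifs printed in full above was in the windows of Tsc22d3, Klf9 or Hpgd. These matches describe letters only.

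In microglia-like cells, 6 of the 8 genes were lower in OIR than in control, and the largest differences were in Sgk1, Tsc22d3 and Hpgd. Sgk1 stood at 261 CPM (248 to 274, from 1633 UMIs) in OIR and 1016 CPM (992 to 1041, from 6701 UMIs) in control, a log2 ratio of -1.96 (-2.04 to -1.88). Tsc22d3 stood at 112 CPM (104 to 121) in OIR and 393 CPM (378 to 409) in control, a log2 ratio of -1.81 (-1.93 to -1.69). Hpgd stood at 163 CPM (153 to 173) in OIR and 571 CPM (553 to 590) in control, a log2 ratio of -1.81 (-1.91 to -1.71). Among the 6077 genes with at least 20 CPM in 1 library, Sgk1 had the 8th lowest ratio, Tsc22d3 the 20th and Hpgd the 21st, which is a description, since the genes were chosen with these ratios known.

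The receptor gene itself, on the minus strand of chromosome 18 (39410545 to 39519421), was lower in OIR. Nr3c1 stood at 69.6 CPM (63.2 to 76.5) in OIR and 124 CPM (116 to 133) in control, a log2 ratio of -0.84 (-1.01 to -0.67). Dusp1 stood at 843 CPM (820 to 866) in OIR and 1272 CPM (1245 to 1300) in control, a log2 ratio of -0.59 (-0.64 to -0.54). Per1 stood at 26.0 CPM (22.2 to 30.3) in OIR and 39.7 CPM (35.1 to 44.8) in control, a log2 ratio of -0.61 (-0.90 to -0.32). Dusp1 and Per1 were only just past 1.5-fold. The other two genes lay the other way. Fkbp5, the feedback chaperone partner, stood at 61.3 CPM (55.3 to 67.8) in OIR and 49.1 CPM (43.9 to 54.8) in control, a log2 ratio of 0.32 (0.10 to 0.54). Klf9 stood at 16.8 CPM (13.7 to 20.3) in OIR and 9.86 CPM (7.61 to 12.6) in control, under the minimum of 20 CPM in both.

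A gene was counted as lower or higher where it differed by at least 1.5-fold, its interval excluded no difference and it reached 20 CPM in 1 library. Of the 8 genes, 7 reached that level in microglia-like cells, all but Klf9, and 6 of them were counted as lower and 0 as higher. Over all 6077 genes tested, 18.2% were counted as lower and 11.6% as higher. The median log2 ratio was -0.84 over the 7 genes and -0.11 over all genes. The genes had been chosen with these ratios known, so nothing is read from the count. Under median of ratios scaling, which takes out the shift of -0.11, Dusp1 at -0.48 and Per1 at -0.50 no longer passed 1.5-fold.

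The states that make up the microglia-like class were not the same in the 2 libraries. Clusters led by Tmem119, P2ry12 and Selplg, called homeostatic, held 72 OIR cells and 586 control cells. Clusters led by Spp1, Hmox1, Lpl or Mmp12, called activated, held 341 OIR cells and 18 control cells. A cycling cluster led by Top2a and Mki67 held 48 OIR cells and 6 control cells. Another 2 clusters, called other, held 167 OIR cells and 222 control cells. Their leading genes held too few markers of any of these states for a name, which does not mean that the markers were absent. In the other state, Tmem119 stood at 491 CPM in control, against 652 CPM in homeostatic control cells. Spp1 there stood at 588 CPM in OIR, against 1803 CPM in activated OIR cells. A cluster mostly of 1 library may be that library rather than a state. The 8 genes and all gene lists used below were kept out of the variable genes that set the clusters. A ratio is given where OIR and control each had 20 or more cells.

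**Figure D1:**
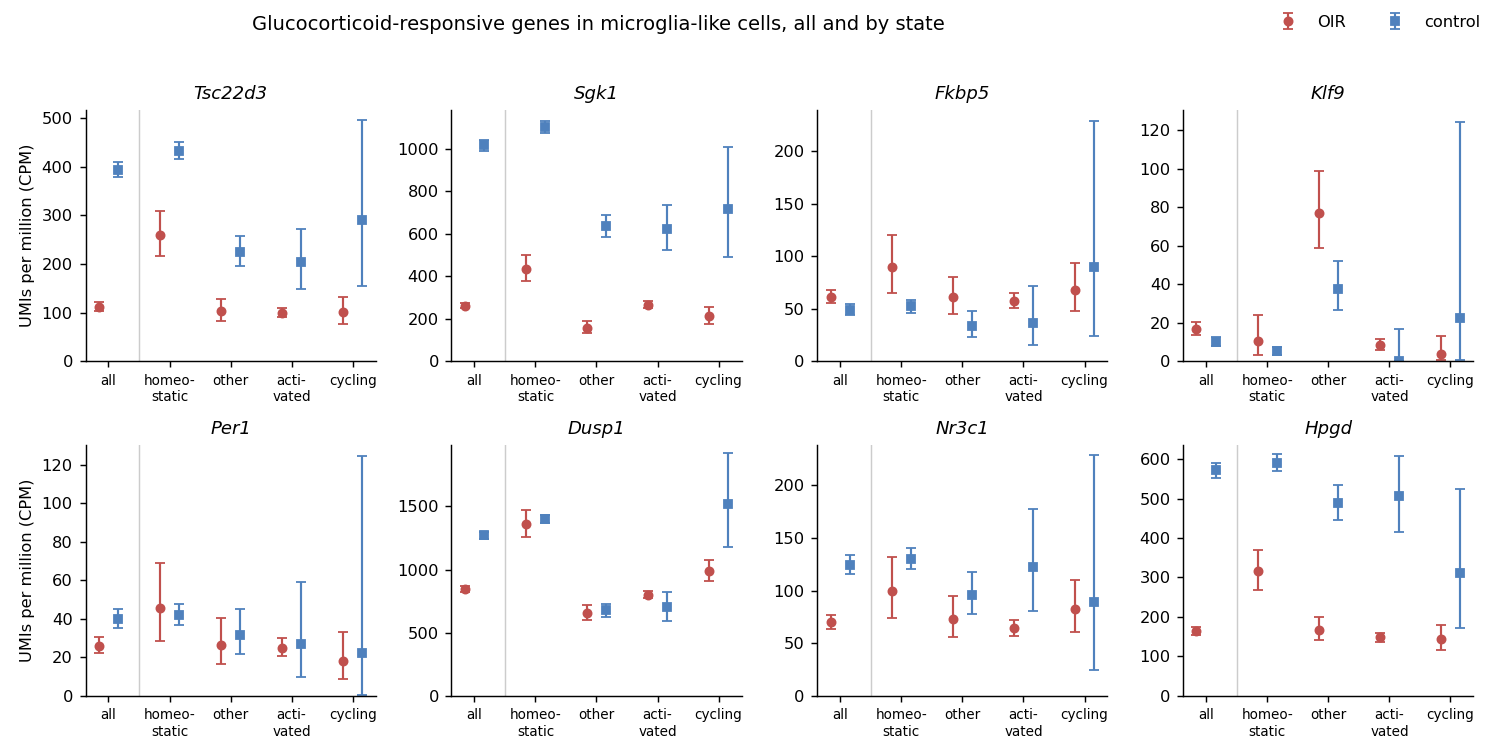
Levels of the 8 genes in all microglia-like cells and in the homeostatic, other, activated and cycling states. The y axis is CPM (UMIs of the gene per 1000000 UMIs of the state), circles are the OIR library, squares are the control library, and bars are exact 95% Poisson intervals from counting error only. Sgk1, Tsc22d3 and Hpgd are lower in OIR in every state drawn, while Dusp1 in the homeostatic state is 1361 CPM in OIR and 1403 CPM in control.

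Within the homeostatic state, Sgk1, Tsc22d3 and Hpgd were lower in OIR, Fkbp5 was higher, and Dusp1 was at nearly the same level. Sgk1 stood at 436 CPM (379 to 499) in OIR and 1105 CPM (1076 to 1133) in control, a log2 ratio of -1.34 (-1.55 to -1.14). Tsc22d3 stood at 259 CPM (216 to 309) in OIR and 433 CPM (416 to 451) in control, a log2 ratio of -0.74 (-1.01 to -0.48). Hpgd stood at 315 CPM (267 to 370) in OIR and 591 CPM (571 to 612) in control, a log2 ratio of -0.91 (-1.15 to -0.67). These ratios kept the direction seen in all microglia-like cells but were smaller. Fkbp5 stood at 89.2 CPM (64.6 to 120) in OIR and 52.2 CPM (46.2 to 58.7) in control, a log2 ratio of 0.77 (0.28 to 1.24).

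Nr3c1 in the homeostatic state stood at 99.6 CPM (73.4 to 132) in OIR and 130 CPM (121 to 140) in control, and the interval of its ratio, -0.84 to 0.04, included no difference. Dusp1 had a log2 ratio of -0.04 (-0.16 to 0.07), and Per1, at 45.7 CPM in OIR and 41.9 CPM in control, had 0.12 (-0.58 to 0.76). For Nr3c1 and Per1, with 72 OIR cells, the intervals held both no difference and a difference of 1.5-fold, so neither is called unchanged. Of the 7 genes that reached 20 CPM, 3 were counted as lower and 1 as higher, against 4.65% and 5.96% of the 6213 genes tested. Klf9 was seen in 5 OIR UMIs and 27 control UMIs.

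The remaining states gave the same directions for the 3 genes with the largest differences. The cells of the other state differed in markers between the libraries. Spp1 stood at 588 CPM in OIR and 17.3 CPM in control, and Tmem119 at 116 CPM in OIR and 491 CPM in control. Microglia markers summed to 11326 CPM in OIR and 18604 CPM in control. The part of these differences in the ratios was not tested. In the other state, Sgk1 stood at 158 CPM in OIR and 634 CPM in control, with a log2 ratio of -2.01 (-2.30 to -1.73). There Hpgd stood at 168 CPM in OIR and 490 CPM in control, and Tsc22d3 at 104 CPM in OIR and 225 CPM in control. Fkbp5 stood at 60.6 CPM in OIR and 33.7 CPM in control, a log2 ratio of 0.85 (0.18 to 1.53), and Dusp1 at 659 CPM in OIR and 676 CPM in control. In all, 3 genes were counted as lower and 2 as higher of 8, against 6.78% and 9.92% of the 6370 genes tested. The second higher gene was Klf9, at 77.0 CPM in OIR and 37.7 CPM in control. This state carried much rod RNA, with rod markers summing to 8775 CPM in OIR and 7429 CPM in control, and Klf9 is abundant in rods. With cells under 1% of rod-marker UMIs, its log2 ratio was 0.54 (-0.34 to 1.44) and it was no longer counted, which left 3 lower and 1 higher, against 5.65% and 8.30% of the 6119 genes tested.

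In the activated state, levels are given side by side without a ratio because control held 18 cells. The activated cells of the libraries were not alike. Spp1 stood at 1803 CPM in OIR and 40.6 CPM in control. Tmem119 stood at 140 CPM in OIR and 312 CPM in control, and P2ry12 at 468 CPM in OIR and 903 CPM in control. The part of this difference in the levels that follow was not tested. Sgk1 stood at 266 CPM (251 to 282) in OIR and 623 CPM (524 to 736) in control, Tsc22d3 at 98.9 CPM (89.9 to 109) in OIR and 203 CPM (148 to 272) in control, and Hpgd at 148 CPM (137 to 159) in OIR and 506 CPM (416 to 609) in control. The intervals of these 3 genes did not overlap between the libraries. Dusp1 stood at 801 CPM (775 to 827) in OIR and 700 CPM (594 to 819) in control, which overlapped. In the cycling state, Sgk1 stood at 213 CPM in OIR and 714 CPM in control, Tsc22d3 at 102 CPM in OIR and 290 CPM in control, and Dusp1 at 990 CPM in OIR and 1518 CPM in control.

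Set against the homeostatic state of the same library, the activated state had log2 ratios below 0 for most of the 8 genes in both libraries. Fewer of the intervals lay wholly below 0 in control, which held 18 activated cells against 341 in OIR. The number of such intervals is therefore not compared between the libraries. Within OIR, the log2 ratio of activated over homeostatic was -1.39 (-1.68 to -1.09) for Tsc22d3, -1.09 (-1.35 to -0.83) for Hpgd, -0.77 (-0.89 to -0.64) for Dusp1 and -0.71 (-0.92 to -0.49) for Sgk1. Per1 at -0.88, Nr3c1 at -0.64 and Fkbp5 at -0.63 also had intervals below 0. Within control, Tsc22d3 at -1.09, Dusp1 at -1.003 and Sgk1 at -0.83 had intervals below 0. Hpgd at -0.23 (-0.51 to 0.05) and Nr3c1 at -0.09 (-0.71 to 0.46) did not. Nor did Per1 at -0.63 (-2.09 to 0.52) and Fkbp5 at -0.53 (-1.76 to 0.47), from 6 and 8 UMIs in activated control cells. States were set apart by genes of the same cells, so these values describe the states and were not tested.

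The clusters inside each state varied. Of the 3 homeostatic clusters, the largest (26 OIR cells and 355 control cells) had Sgk1 at 699 CPM in OIR and 1171 CPM in control, a log2 ratio of -0.74, and Dusp1 at 1653 CPM in OIR and 1554 CPM in control. The smallest (23 OIR cells and 46 control cells) had Sgk1 at 204 CPM in OIR and 1350 CPM in control, a log2 ratio of -2.72 (-3.24 to -2.25). Sgk1 thus differed by very different amounts between clusters that share the homeostatic markers, while its direction was the same. A Mmp12-led cluster of 106 OIR cells and 0 control cells had Hpgd at 106 CPM (92.4 to 121), with Sgk1 at 277 CPM and Tsc22d3 at 84.2 CPM. In the largest homeostatic cluster 3 of 7 measured genes (Tsc22d3, Sgk1 and Hpgd) were counted as lower and 0 as higher, against 3.25% and 6.16% of the 6530 genes tested there.

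Hpgd was well above its level in rods in clusters where Sgk1, Dusp1 and Tsc22d3 had few UMIs. A cluster of 74 OIR cells and 129 control cells, with median depths of 1800 and 1736 UMIs, had Hpgd at 213 CPM (144 to 305) in OIR and 630 CPM (538 to 734) in control. In the same cells Dusp1 stood at 35.6 CPM in OIR and 26.7 CPM in control, and Sgk1 at 28.5 CPM in OIR and 45.8 CPM in control, from 4 to 12 UMIs each. A shallow activated cluster of 99 OIR cells likewise had Hpgd at 145 CPM (105 to 195) beside Sgk1 at 33.7 CPM and Tsc22d3 at 10.1 CPM. Both clusters stood apart in RNA quality. In the first, Malat1, a nuclear RNA, stood at 3222 CPM in OIR and 1563 CPM in control, against 15020 CPM in OIR and 19388 CPM in control over all microglia-like cells, and Neat1, also nuclear, had no UMI. Ribosomal protein genes took 28.2% of its UMIs in OIR and 29.9% in control, and the 18 dissociation and immediate early genes summed to 868 CPM in OIR and 1268 CPM in control. In the shallow activated cluster Malat1 stood at 2042 CPM, Neat1 had no UMI, ribosomal protein genes took 23.2% and the immediate early genes summed to 755 CPM in OIR. The part of RNA quality in these values was not tested.

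After each cell was thinned to 1500 UMIs, fewer OIR than control microglia-like cells held a UMI of Sgk1, Tsc22d3, Hpgd, Dusp1 or Nr3c1. Thinning kept 548 OIR and 774 control cells and left out 80 OIR and 58 control cells that were shallower. Sgk1 had a UMI in 25.7% (22.1 to 29.6) of OIR cells and 61.1% (57.6 to 64.6) of control cells. Hpgd had one in 21.0% of OIR cells and 55.6% of control cells, and Tsc22d3 in 13.1% of OIR cells and 38.9% of control cells. Dusp1 had one in 41.6% of OIR cells and 59.3% of control cells. Without thinning, median depths were 5753.5 UMIs in OIR and 6579.5 UMIs in control.

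Shares were set beside those of rod-like cells, a class outside the myeloid lineage, from 1797 OIR and 2970 control cells whose medians before thinning were 1491.5 and 1404.5 UMIs. Hpgd had a UMI in 0.111% of OIR rods and 0.135% of control rods. Sgk1 had one in 4.34% of OIR rods and 4.28% of control rods, and Tsc22d3 in 2.39% of OIR rods and 3.16% of control rods. The microglia-like shares of these 3 genes lay well above the rod shares in both libraries. Klf9 was the reverse, with 3.10% of OIR and 1.55% of control microglia-like cells against 43.6% of OIR and 40.4% of control rods. Per1 had a UMI in 3.83% of OIR and 4.01% of control microglia-like cells, against 6.23% of OIR and 2.66% of control rods. Nr3c1 had one in 8.94% of OIR and 16.1% of control microglia-like cells, against 13.4% of OIR and 11.9% of control rods. For these 3 genes the rod share was above the microglia-like share in OIR, so no background level was taken from rods. The part of free RNA in the microglia-like values of Klf9, Per1 and Nr3c1 was not tested.

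**Figure D2:**
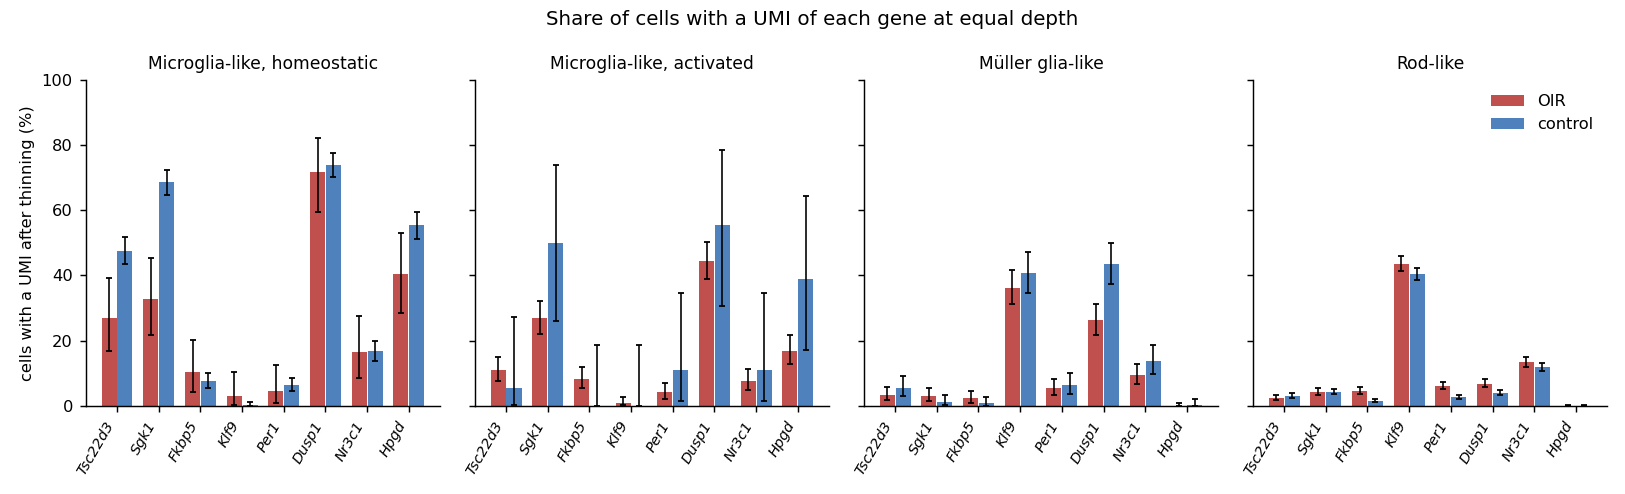
Share of cells with at least 1 UMI of each gene after thinning to 1500 UMIs per cell, in homeostatic and activated microglia-like, Müller glia-like and rod-like cells. The y axis is percent of cells, bars with the OIR library left of control start at 0, and error bars are exact 95% Clopper-Pearson intervals. In homeostatic cells Sgk1 was in 32.8% of OIR and 68.6% of control cells, while Dusp1 was in 71.6% of OIR and 74.0% of control cells.

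The average thinned microglia-like cell held UMIs of 1.26 of the 8 genes in OIR and 2.43 in control. At least 3 of the genes were seen in 15.7% of OIR cells and 48.3% of control cells, and none in 32.3% of OIR cells and 7.75% of control cells. Homeostatic cells held 2.06 of the genes in OIR and 2.77 in control. Over the 28 gene pairs, Spearman's rho across thinned cells had a median of 0.030 in OIR and 0.034 in control, and its highest value was 0.286 in OIR and 0.240 in control. Most thinned counts are 0, so these values describe sparse data and say little of whether the genes vary together.

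Other genes moved with these differences in microglia-like cells. The 18 dissociation and immediate early genes, which cell isolation is known to induce, summed to 13517 CPM in OIR and 30057 CPM in control, and in the homeostatic state to 25456 CPM in OIR and 32811 CPM in control. The 12 microglia markers summed to 13721 CPM in OIR and 23882 CPM in control, and none was at 0. Among them Tmem119 stood at 174 CPM in OIR and 614 CPM in control. Rod markers summed to 2034 CPM in OIR and 1709 CPM in control, the 8 border macrophage markers to 363 CPM in OIR and 94.3 CPM in control, and mitochondrial genes took 3.16% of UMIs in OIR and 3.29% in control. The parts of isolation, state and marker loss in the results were not tested. When the OIR states were weighted by the control library's mix of states, the log2 ratios were -1.39 for Sgk1, -0.99 for Hpgd, -0.77 for Tsc22d3, -0.40 for Nr3c1, -0.04 for Dusp1, 0.08 for Per1 and 0.78 for Fkbp5.

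Further genes that glucocorticoids are known to induce went both ways. Of 27 listed, 16 were measured in microglia-like cells, 10 were counted as lower and 4 as higher, against 18.2% and 11.6% of all genes tested, and their median log2 ratio was -0.81 against -0.11 over all genes. The metallothionein genes Mt2 (136 CPM in OIR and 16.4 CPM in control, log2 ratio 3.06) and Mt1 (1487 CPM in OIR and 413 CPM in control, log2 ratio 1.85), which bind metals, were among the higher ones. Cdkn1a, an inhibitor of the cell cycle, stood at 187 CPM in OIR and 40.2 CPM in control, a log2 ratio of 2.22. The 10 lower genes were Nfkbia, Cebpd, Cebpb, Sult1a1, Zfp36, Glul, Cables1, Rhob, Tob2 and Txnip. Of these, Rhob and Zfp36 are immediate early genes as well. In the homeostatic state 15 were measured, 2 were lower (Rhob and Txnip) and 3 were higher (Mt1, Mt2 and Cdkn1a), against 4.65% and 5.96% of all genes tested, with a median of -0.18 against 0.00 over all genes.

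The receptor machinery is made of chaperones, coregulators and enzymes of hormone activation. Of 20 listed genes, 16 were measured, 3 were lower and 3 were higher, with a median of -0.17, which is near the shares of all genes tested (18.2% lower and 11.6% higher). The 3 with the largest differences were Ncoa3, a coactivator, at -1.12 (37.4 CPM in OIR and 81.3 CPM in control), the HSP40 chaperone Dnajb1 at -1.11 (70.9 CPM in OIR and 153 CPM in control) and the histone acetyltransferase Ep300 at -0.96 (61.0 CPM in OIR and 118 CPM in control). The mineralocorticoid receptor gene Nr3c2, whose product also binds glucocorticoids, had 3 UMIs in OIR and 13 UMIs in control microglia-like cells. Hsd11b1, whose enzyme turns inactive into active hormone, had 1 UMI in OIR and 0 UMIs in control, where a count of 0 allows up to 0.455 CPM.

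The next list held inflammatory genes that the receptor is known to repress. Of 15 listed, 11 were measured, 3 were lower (Icam1, Il1a and Nfkb1) and 2 were higher (Ccl7 and Cxcl10), with a median of -0.22, against 18.2% lower and 11.6% higher of all genes tested. Ccl7, a chemokine, stood at 77.4 CPM in OIR and 17.7 CPM in control, a log2 ratio of 2.13. Icam1, an adhesion molecule, stood at 200.2 CPM in OIR and 600.0 CPM in control, a log2 ratio of -1.58. Cxcl10, an interferon-induced chemokine, stood at 70.1 CPM in OIR and 24.9 CPM in control, a log2 ratio of 1.495.

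Of 14 prostaglandin genes, 5 were measured, 2 were lower and 2 were higher, against 18.2% and 11.6% of all genes tested. Ptgs1, a cyclooxygenase, stood at 245 CPM in OIR and 498 CPM in control (log2 ratio -1.02), Hpgds, a prostaglandin D synthase, at 185 CPM in OIR and 299 CPM in control (-0.69), and Ptgr1, a reductase in the same breakdown route as Hpgd, at 25.2 CPM in OIR and 12.9 CPM in control (0.97). Of 16 clock genes beside Per1, 5 were measured, 3 were lower and 1 was higher, against the same shares, the largest being Per3 at -0.998 (10.9 CPM in OIR and 21.7 CPM in control). Rora, a nuclear receptor of the clock, was at 0.83 (42.5 CPM in OIR and 24.0 CPM in control), and Tef, a clock output factor, was at -0.67 (18.4 CPM in OIR and 29.3 CPM in control).

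The immediate early genes were the list with the most members lower. Of 18 listed, 17 were measured, 15 were lower and 0 were higher, with a median of -1.19, against 18.2% lower and 11.6% higher of all genes tested, and Btg2 at -1.78, Rhob at -1.56 and Ier5 at -1.42 led it. Dusp1, itself an immediate early gene, had a smaller ratio than each of those 3. In the homeostatic state 4 of the 17 were lower, against 4.65% of all genes tested, with a median of -0.43. Of 22 relatives of the 8 genes, 16 were measured, 9 were lower and 1 was higher, with a median of -0.60, against 18.2% and 11.6% of all genes tested in microglia-like cells. Klf2, a vascular and immune relative of Klf9, stood at 675 CPM in OIR and 2476 CPM in control (log2 ratio -1.87). Klf10, another relative, stood at 32.3 CPM in OIR and 8.19 CPM in control (1.98), and Tsc22d2, a relative of Tsc22d3, at 83.2 CPM in OIR and 201 CPM in control (-1.27).

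**Figure D3:**
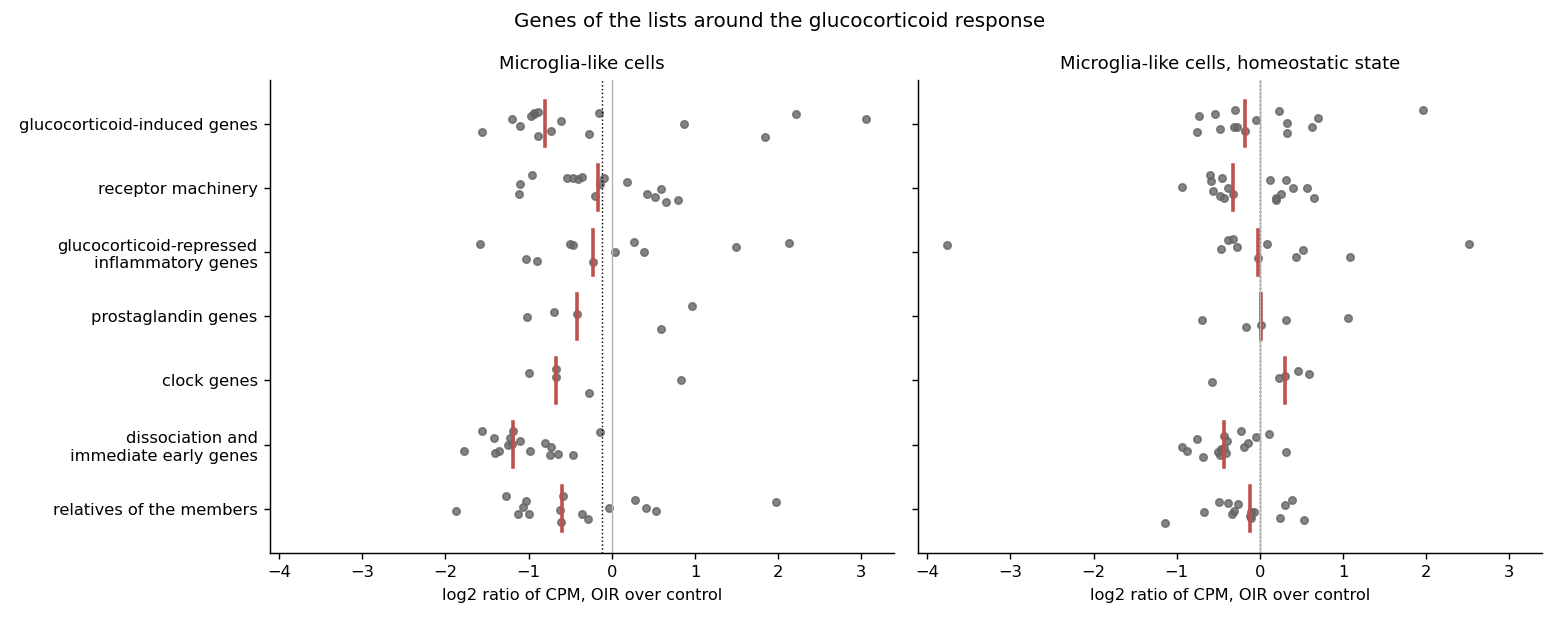
Log2 ratios of OIR over control for each measured gene of the 7 lists, in all microglia-like cells and in the homeostatic state. The x axis is the log2 ratio of CPM, each dot is a gene, red bars are list medians, and the dotted line is the median of all genes tested. The immediate early genes lie lowest in all microglia-like cells, with a median of -1.19, and the homeostatic medians lie between -0.43 and 0.30.

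Border macrophage-like cells, led by Pf4, Mrc1 and Cd163, showed the lowest Sgk1 ratio of all classes compared. Sgk1 stood at 69.3 CPM (54.8 to 86.5) in 97 OIR cells and 581 CPM (485 to 691) in 28 control cells, a log2 ratio of -3.07 (-3.49 to -2.65). Hpgd stood at 174 CPM in OIR and 523 CPM in control, a log2 ratio of -1.59 (-1.92 to -1.24). Dusp1 stood at 836 CPM in OIR and 1807 CPM in control (-1.11), Nr3c1 at 69.3 CPM in OIR and 153 CPM in control (-1.14), and Tsc22d3 at 165 CPM in OIR and 320 CPM in control (-0.95). Fkbp5 was again higher, at 115 CPM (95.7 to 136) in OIR and 54.1 CPM (27.9 to 94.5) in control, a log2 ratio of 1.08 (0.23 to 2.07).

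All 8 genes reached 20 CPM in this class, 5 were counted as lower and 1 as higher, against 15.0% and 12.4% of the 6549 genes tested. The 2 sets of cells were not alike. Border macrophage markers summed to 12872 CPM in OIR and 1523 CPM in control, and microglia markers to 4805 CPM in OIR and 18142 CPM in control, so the control cells carried much microglia RNA. The part of that RNA in these ratios was not tested. The Sgk1 UMIs were also held by few cells, 30 of 97 in OIR and 15 of 28 in control. Immediate early genes summed to 12149 CPM in OIR and 28658 CPM in control.

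Monocyte-like cells (30 in OIR and 12 in control) and neutrophil-like cells (17 in OIR and 10 in control) were too few for a ratio. Sgk1 stood at 221 CPM (172 to 278) in OIR and 586 CPM (459 to 736) in control monocyte-like cells, and at 212 CPM (156 to 281) in OIR and 762 CPM (601 to 952) in control neutrophil-like cells. Hpgd stood at 146 CPM in OIR and 433 CPM in control monocyte-like cells. In both classes the Sgk1 interval of OIR lay wholly below that of control. Microglia markers moved with it, summing to 5411 CPM in OIR and 11231 CPM in control monocyte-like cells, and to 9604 CPM in OIR and 21056 CPM in control neutrophil-like cells. None of the 12 was at 0, and the part of microglia RNA in these values was not tested.

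Müller glia are the radial glia that span the retina. In Müller glia-like cells Dusp1 and Tsc22d3 were lower in OIR, and Sgk1 was higher from few UMIs. Sgk1 stood at 36.2 CPM (31.3 to 41.8, from 192 UMIs) in OIR and 9.02 CPM (5.89 to 13.2, from 26 UMIs) in control, a log2 ratio of 2.01 (1.41 to 2.66). The OIR UMIs sat in 72 of 383 cells, and the 10 highest cells held 49.5% of them, while the control UMIs sat in 21 of 260 cells. After thinning, 3.14% of OIR and 1.19% of control Müller glia-like cells had a UMI, below the rod share, so the ratio rests on few cells with many UMIs and is not read as a change in the class. Dusp1 was lower, at 268 CPM (254 to 282) in OIR and 545 CPM (518 to 572) in control, a log2 ratio of -1.02 (-1.13 to -0.92).

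Dusp1 UMIs were spread over 230 of 383 OIR and 198 of 260 control Müller glia-like cells, and after thinning 26.3% of OIR and 43.7% of control cells had one. Tsc22d3 stood at 20.6 CPM in OIR and 37.1 CPM in control (-0.85), and Nr3c1 at 69.7 CPM in OIR and 99.2 CPM in control, with a log2 ratio of -0.51 (-0.74 to -0.28) short of 1.5-fold. Under a stricter cell filter, which left 151 OIR and 30 control cells, the Tsc22d3 ratio was 0.86. Klf9 at 335 CPM in OIR and 359 CPM in control and Per1 at 33.6 CPM in OIR and 32.6 CPM in control had intervals that included no difference. Of 6 genes measured, 2 were lower and 1 was higher, against 12.9% and 8.44% of the 6873 genes tested. Rod markers summed to 21189 CPM in OIR and 16577 CPM in control in these cells, and Müller markers to 3371 CPM in OIR and 7569 CPM in control. Their part in the results was not tested.

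In rod-like cells none of the genes was counted as lower, and Fkbp5, Per1 and Dusp1 were higher in OIR. Fkbp5 stood at 29.3 CPM (26.2 to 32.7) in OIR and 13.2 CPM (11.6 to 15.0) in control, a log2 ratio of 1.15 (0.90 to 1.40). Per1 stood at 37.0 CPM (33.5 to 40.8) in OIR and 19.8 CPM (17.8 to 22.0) in control, a log2 ratio of 0.90 (0.69 to 1.11). Dusp1 stood at 52.1 CPM (47.8 to 56.6) in OIR and 30.1 CPM (27.6 to 32.8) in control, a log2 ratio of 0.79 (0.62 to 0.96). After thinning, a Fkbp5 UMI was seen in 4.62% of OIR and 1.65% of control rods, beside 1.07% of OIR and 0.749% of control bipolar-like cells. A Per1 UMI was seen in 6.23% of OIR and 2.66% of control rods, beside 4.51% of OIR and 5.62% of control bipolar-like cells, and a Dusp1 UMI in 6.84% of OIR and 4.07% of control rods, beside 8.37% of OIR and 5.62% of control bipolar-like cells. Rods thus did not stand clearly above bipolar-like cells for Per1 and Dusp1, and the part of free RNA in these low levels was not tested.

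Klf9, at 370 CPM in OIR and 359 CPM in control, and Nr3c1, at 103 CPM in OIR and 92.1 CPM in control, differed by less than 1.5-fold in rods. Of 7 genes measured, 0 were lower and 3 were higher, against 1.30% and 3.82% of the 6543 genes tested. A rod cluster led by Edn2 held 1125 OIR cells and 48 control cells. Without it the log2 ratios were 1.14 for Fkbp5, 0.84 for Per1 and 0.80 for Dusp1. In cone-like cells Fkbp5 stood at 28.0 CPM in OIR and 16.6 CPM in control (0.75, 0.38 to 1.15), and Per1 at 33.3 CPM in OIR and 20.3 CPM in control (0.71, 0.37 to 1.06). The thinned Per1 shares of cones, 2.90% in OIR and 3.68% in control, went against that ratio, so no order is read from them. Those 2 of 6 measured genes were higher and 0 were lower, against 2.73% and 2.10% of the 6515 genes tested.

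**Figure D4:**
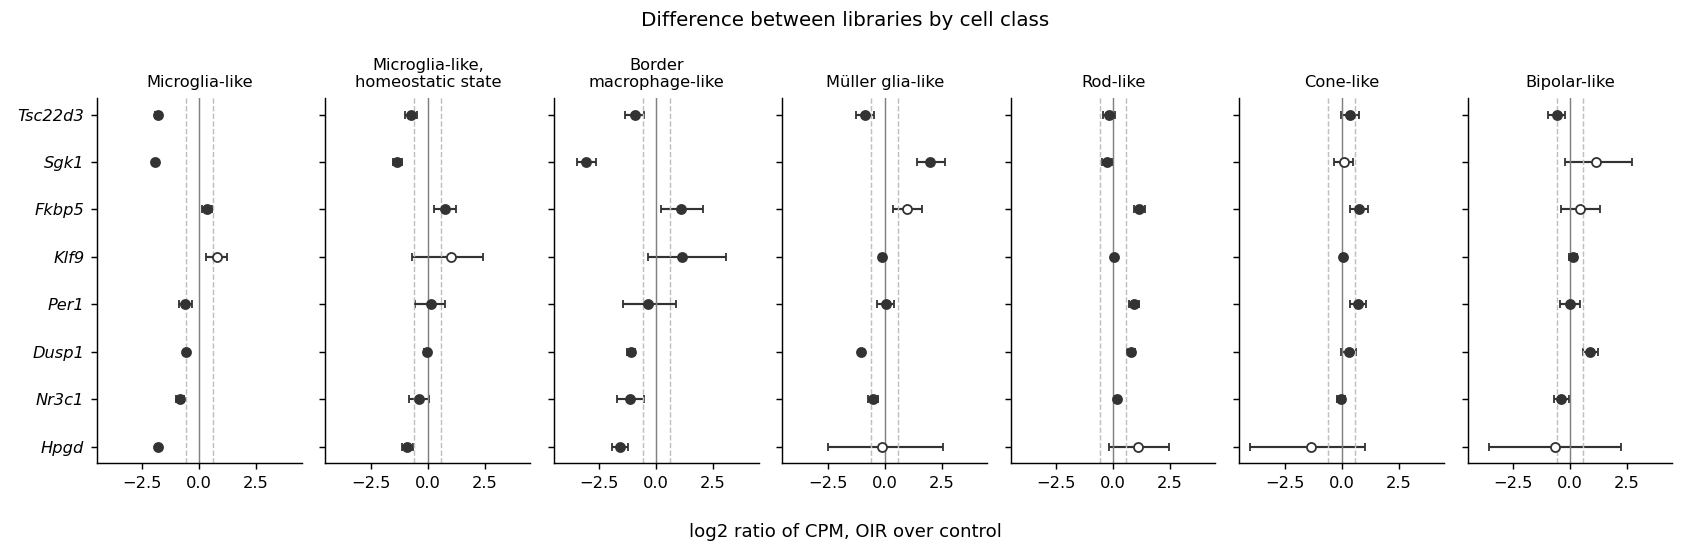
Log2 ratio of OIR over control for each gene by class, for microglia-like cells, their homeostatic state, and border macrophage-like, Müller glia-like, rod-like, cone-like and bipolar-like cells. The x axis is the log2 ratio of CPM with its exact 95% interval from counting error, dashed lines mark 1.5-fold, and open circles are genes under 20 CPM in both libraries. Sgk1 lies at -1.96 in microglia-like, -3.07 in border macrophage-like and 2.01 in Müller glia-like cells. Fkbp5 lies above 0 in all classes drawn, but is under 20 CPM in Müller glia-like and bipolar-like cells. In amacrine-like cells, not drawn, its log2 ratio was -1.17, from 8 UMIs in OIR and 12 UMIs in control.

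Bipolar-like cells gave 1 gene in each direction. Dusp1 stood at 78.2 CPM (70.0 to 87.0) in OIR and 42.3 CPM (34.9 to 50.9) in control, a log2 ratio of 0.89 (0.57 to 1.21). It came from a Scgn-led cluster (96.8 CPM in OIR and 42.8 CPM in control), while the Pcp2-led cluster had 36.0 CPM in OIR and 39.9 CPM in control. Tsc22d3 stood at 30.4 CPM in OIR and 45.7 CPM in control, a log2 ratio of -0.59 (-0.95 to -0.22). Of 5 genes measured, 1 was lower and 1 was higher, against 6.26% and 4.11% of the 7177 genes tested.

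The small classes are described with caution because of their cell numbers. In amacrine-like cells Sgk1 had 50 UMIs in 21 OIR cells and 6 UMIs in 23 control cells, 150 CPM in OIR and 26.9 CPM in control. Its log2 ratio of 2.47 (1.25 to 3.99) rests on 6 OIR cells with a UMI, the highest of which held 17. Dusp1 there stood at 98.7 CPM in OIR and 198 CPM in control (-1.001, -1.70 to -0.32), and Hpgd had 3 UMIs in OIR and 10 UMIs in control. Of 8 genes, 2 were lower and 1 was higher, against 11.8% and 6.08% of the 7777 genes tested. In pigment epithelium-like cells Sgk1 stood at 640 CPM (525 to 772) in OIR and 482 CPM (353 to 643) in control, intervals that overlapped, and none of 5 genes measured was counted in either direction, against 2.83% lower and 1.02% higher of the 6282 genes tested. In endothelial-like cells (15 in OIR and 47 in control) Tsc22d3 stood at 44.8 CPM (26.5 to 70.8) in OIR and 247 CPM (211 to 286) in control, and Sgk1 at 167 CPM in OIR and 147 CPM in control.

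The order of classes differed from gene to gene, and it is given over the 8 classes with at least 20 cells in both libraries, which leaves out monocyte-like, neutrophil-like and endothelial-like cells. For Sgk1 in OIR, pigment epithelium-like cells stood first, followed by microglia-like (261 CPM), amacrine-like (150 CPM), border macrophage-like (69.3 CPM), Müller glia-like (36.2 CPM), rod-like (25.6 CPM), cone-like (18.3 CPM) and bipolar-like cells (4.92 CPM), and no neighbours among these 8 overlapped. In control, microglia-like cells stood first of the 8, then border macrophage-like and pigment epithelium-like cells, which overlapped, and Müller glia-like cells stood below rods and cones. For Hpgd, microglia-like and border macrophage-like cells overlapped and stood above the 6 other classes ranked in both libraries. Monocyte-like cells, not ranked, overlapped both in OIR (107 to 194 CPM) and border macrophage-like cells in control (325 to 565 CPM). Hpgd reached at most 1.21 CPM in OIR and 1.12 CPM in control in rods, cones, bipolar-like and Müller glia-like cells.

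Klf9 ran the other way, with rods, Müller glia-like cells and cones at 316 to 370 CPM in both libraries and microglia-like cells last of the 8 at 16.8 CPM in OIR and 9.86 CPM in control. Of the 8 classes, Dusp1 was highest in microglia-like and border macrophage-like cells, which overlapped in OIR but not in control, with Müller glia-like cells next in both libraries. In neutrophil-like cells, outside that order, Dusp1 stood at 1286 CPM in OIR and 2216 CPM in control. Nr3c1 stood first of the 8 in rods in OIR (103 CPM), and in control in border macrophage-like (153 CPM) and microglia-like cells (124 CPM), which overlapped. For Per1, the intervals of all neighbours overlapped in both libraries. Microglia-like cells held 78.0% of all Hpgd UMIs in OIR and 94.0% in control, and 57.1% of Sgk1 UMIs in OIR and 85.5% in control. They held 12.6% of Nr3c1 UMIs in OIR and 22.4% in control.

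**Figure D5:**
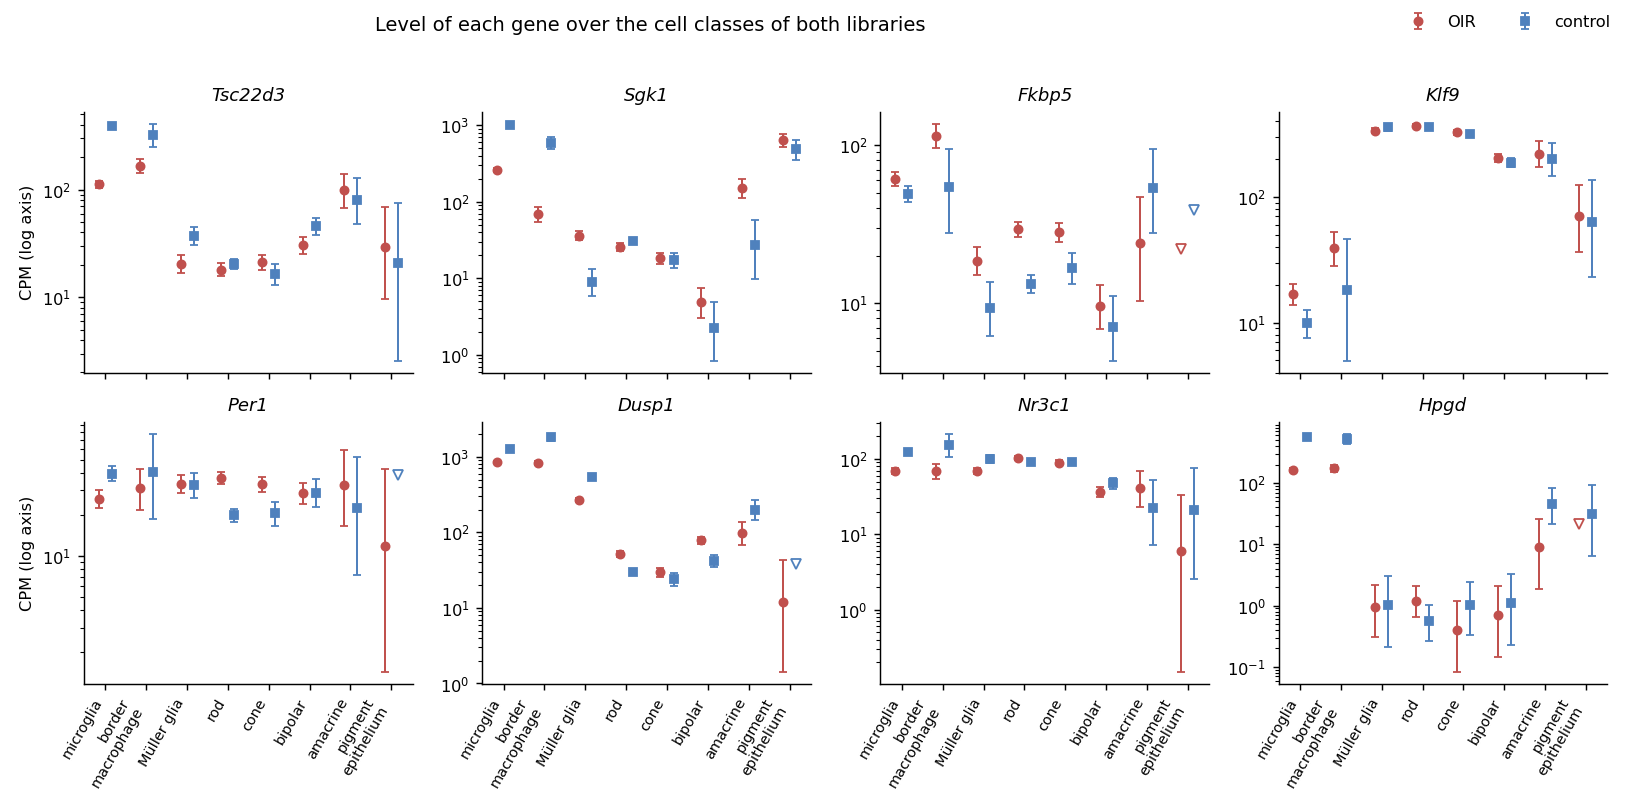
Levels of the 8 genes over 8 cell classes. The y axis is CPM on a log scale, circles are the OIR library and squares are control, bars are exact 95% Poisson intervals, and open triangles mark the upper end of the interval where no UMI was seen. Of the classes drawn, Hpgd is above 100 CPM in microglia-like and border macrophage-like cells only, and Klf9 is highest in rod-like, cone-like and Müller glia-like cells.

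Likeness of pattern was measured as Pearson's r of log2(CPM + 5) over 18 class-by-library groups of at least 50 cells, among 9752 genes. These points share libraries and depth, so r is a description. The genes most like Hpgd were Tnfrsf13b (0.992), Ighm (0.991) and Tnfaip8l2 (0.990), and those most like Sgk1 were Fhod1 (0.967), Plod3 (0.957) and Pdgfb (0.956). Dusp1 was most like Klf6 (0.977), Nfkbiz (0.977) and Klf4 (0.970), and Tsc22d3 most like Tmem88 (0.966), Trim27 (0.963) and Stard9 (0.961). Klf9 was most like Fam213a (0.980), Fam169a (0.980) and Rab30 (0.979). Fkbp5 was most like Rilpl2 (0.953), Rbpj (0.926) and Stk17b (0.919), and Per1 most like Aftph (0.937), Slc35b3 (0.930) and Tra2b (0.927). Nr3c1 had the weakest partners, with Pik3r1 (0.912), Dennd6a (0.891) and Zfp36l2 (0.885). None of the 8 genes was among the 3 most like another.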

How the data were processed

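The authors deposited raw UMI counts for each gene in each barcode, made with Cell Ranger 3.0.2 on mm10 per the submitters' processing notes. The sources used here do not give aligner settings, annotation release or cell calling. The 8 genes and all gene lists were chosen with earlier results of these data known. All other steps were run here, with scanpy 1.11.5, scipy 1.17.1, scikit-learn 1.9.0 and igraph 0.11.9.

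Cells needed 500 genes and no more than 10% mitochondrial UMIs. Scrublet's automatic limit marked 0 OIR barcodes and 1 control barcode, so the top scores were removed at 0.8% per 1000 barcodes, 424 in OIR (5.82%) and 938 in control (8.66%). Cells of both libraries were clustered together, without integration, on 2000 variable genes, 30 components, 20 neighbours and Leiden resolution 1, and myeloid clusters were clustered again. Clusters were named from listed markers (mean log2 fold of at least 0.5, with 3 markers in 10% of cells). No name was given where the 10 leading genes held more markers of a second class, or at least 2 of them. Parts of these rules were set with the data at hand, and 185 OIR cells (3.02%) and 59 control cells (0.687%) stayed unnamed. A microglia state needed 2 of its markers among the 10 leading genes. Where identifiers shared a symbol (36), 1 was kept.

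UMIs were summed per class and library and scaled to CPM, with exact Poisson intervals, conditional binomial intervals for ratios and Clopper-Pearson intervals for shares, all at 95%. The interval step was tested on simulated counts. A limit from a count of 0 is 3 counts of the total. All 8 genes are named, together with Nr3c2, Hsd11b1, the 3 genes of each list with the largest ratios in microglia-like cells and the 3 genes most like each. Other genes named were chosen after their values were seen.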

Additional observations from a re-analysis of the deposited data

Results flagged for a closer look

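A total of 3 genes differed between OIR and control by at least 1.5-fold in opposite directions in different cell classes, each with an interval that excluded 0 and at least 20 CPM in 1 library. The differences between classes were not tested, since each group is 1 library.

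Sgk1 had a log2 ratio of -1.96 in microglia-like cells and -3.07 in border macrophage-like cells, against 2.01 in Müller glia-like cells and 2.47 in amacrine-like cells. The amacrine value rests on 50 UMIs in OIR and 6 UMIs in control. The Müller value rests on 192 UMIs in OIR, of which 10 cells held 49.5%, and 26 UMIs in control, with thinned shares below those of rods. Per1 had a log2 ratio of -0.61 in microglia-like cells, against 0.90 in rod-like cells and 0.71 in cone-like cells. The thinned Per1 shares of microglia-like cells were nearly equal in OIR and control. Those of cones went against the cone ratio, and the part of free RNA in these low Per1 levels was not tested. Dusp1 had a log2 ratio of -0.59 in microglia-like cells, -1.11 in border macrophage-like cells, -1.02 in Müller glia-like cells and -1.001 in amacrine-like cells, against 0.79 in rod-like cells and 0.89 in bipolar-like cells. Within the homeostatic microglia-like state, the ratios were 0.12 for Per1 and -0.04 for Dusp1. Under median of ratios scaling, neither of these genes passed 1.5-fold in microglia-like cells.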

How the results depend on the processing

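No paired analysis was possible because each group is 1 library and the labels carry no replicate numbers. Of 96 alternative values for the 8 genes in microglia-like cells, 61 stayed within the counting interval, 32 moved beyond it and 3 changed side. Over 13 settings, Sgk1 ranged from -2.20 to -0.74, Tsc22d3 from -1.97 to -0.77, Hpgd from -1.87 to -0.99 and Nr3c1 from -0.98 to -0.40, all below 0, while Fkbp5 (0.29 to 0.78) and Klf9 (0.45 to 2.36) were above 0 throughout. The causes of the changes below were not tested.

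In the Tmem119-highest cluster alone (26 OIR and 355 control cells), log2 ratios were -0.80 for Tsc22d3, -0.74 for Sgk1, 0.65 for Fkbp5, -0.50 for Nr3c1 and -1.01 for Hpgd, and Per1 (0.51) and Dusp1 (0.090) changed side. Then 3 of the 8 genes were lower (Tsc22d3, Sgk1 and Hpgd), against 3.25% of the 6530 genes tested there. Lower in the lists were 2 induced, 1 receptor, 1 inflammatory, 0 prostaglandin, 0 clock and 5 immediate early genes and 2 relatives. Higher were 3 induced, 1 receptor, 5 inflammatory, 1 prostaglandin and 0 clock genes, against 6.16% of all genes tested. Shares over all genes were not taken under the settings that follow, so nothing is read from the counts given for them. With the control mix of states, added after seeing the data, the values were -0.77 for Tsc22d3, -1.39 for Sgk1, 0.78 for Fkbp5, -0.038 for Dusp1, -0.40 for Nr3c1 and -0.99 for Hpgd, and Per1 changed side (0.079). Without activated and cycling states, also added then, they were -1.30 for Tsc22d3, 2.36 for Klf9, -0.26 for Per1, -0.48 for Dusp1, -0.59 for Nr3c1 and -1.36 for Hpgd, with 1 gene higher (Klf9) and 5 inflammatory, 1 prostaglandin, 0 clock genes and 5 relatives lower.

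At resolution 0.5 they were -1.64 for Tsc22d3, -2.20 for Sgk1, 1.91 for Klf9, -0.76 for Dusp1 and -1.52 for Hpgd, with 1 gene higher (Klf9) and 5 inflammatory and 0 clock genes lower. Without the Spp1-highest cluster they were -1.64 for Tsc22d3, -0.49 for Dusp1 and -1.58 for Hpgd, with 1 gene higher (Klf9) and 1 prostaglandin gene lower. With every cell weighted the same they were -1.97 for Tsc22d3, -2.19 for Sgk1, -0.88 for Dusp1 and -1.71 for Hpgd, with 1 gene higher (Klf9) and 0 clock genes lower. Median of ratios scaling gave -1.85 for Sgk1, -0.48 for Dusp1 and -1.70 for Hpgd, with 1 prostaglandin and 1 clock gene lower. With the genes and lists among the variable genes, 1 clock gene was lower. With no minimum level, 1 gene was higher (Klf9).

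In Müller glia-like cells Tsc22d3 changed side (0.86) under the stricter cell filter. Depth limits the low genes most, and the thinned shares moved with the depth chosen in 22 of 24 OIR and 21 of 24 control values.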

Other observations

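Most measured clock genes other than Per1 were lower in OIR in Müller glia-like cells. Of 16 listed, 13 were measured there, 8 were lower (Per3, Cry2, Nr1d1, Dbp, Tef, Hlf, Ciart and Bhlhe40) and 0 were higher, with a median log2 ratio of -0.60 against -0.04 over all genes. Against these counts, 12.9% of all genes tested in the class were lower and 8.44% were higher. Hlf, a clock output factor, stood at 81.9 CPM in OIR and 205 CPM in control, a log2 ratio of -1.32 (-1.50 to -1.14). Per3 stood at 58.1 CPM in OIR and 131 CPM in control (-1.17), and Dbp at 173 CPM in OIR and 389 CPM in control (-1.17). In the same cells Müller markers summed to 3371 CPM in OIR and 7569 CPM in control, and rod markers to 21189 CPM in OIR and 16577 CPM in control. The part of these shifts in the clock gene ratios was not tested. In rods, 0 of 11 measured clock genes were lower and 0 were higher, against 1.30% and 3.82% of all genes tested there. The clock genes in this paragraph were named after their values were seen, and the sources used here do not give the time of day of collection.

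Metallothioneins were higher in OIR in several classes. Mt1 and Mt2 were counted as higher in microglia-like, homeostatic, border macrophage-like, Müller glia-like, bipolar-like and rod-like cells. Of all genes tested, 11.6%, 5.96%, 12.4%, 8.44%, 4.11% and 3.82% were counted as higher in these, in the same order. The part of free RNA in the metallothionein values was not tested. In homeostatic cells Mt2 stood at 56.0 CPM in OIR and 14.4 CPM in control, a log2 ratio of 1.96 (1.27 to 2.61).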
